A study of Mus musculus with 18 samples.

Results

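The Dnmt3 genes encode the enzymes and the cofactor that place methyl groups on DNA that carries none. They were described here across 4 groups of mouse embryos at E8.5, in the whole embryo and in each cell class. The 3 members Dnmt3a, Dnmt3b and Dnmt3l were found by symbol among the 31053 mouse genes of the files, each with a single entry. Transcripts were counted as unique molecular identifiers (UMIs) in 18 libraries, with 1 embryo per library according to the labels, of the strain 129S4/SvJae. There were 7 wildtype (WT) embryos beside 3 labelled Dnmt1 KO, 4 labelled Dnmt3a KO and 4 labelled Dnmt3b KO. The KO embryos are labelled as nulls and were bred from heterozygous parents, with WT embryos from the same kinds of cross. The exons deleted in each line were not given in the sources used here, and the chemistry counts transcripts at their 3' end without telling isoforms apart. A library can therefore hold reads of a disrupted gene.

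Dnmt3a and Dnmt3b are the catalytic de novo methyltransferases. They methylate the genome of the embryo after implantation, and in many tissues Dnmt3b is the more abundant early and Dnmt3a later. Dnmt3l has no catalytic activity of its own, binds to both enzymes and stimulates them, and is known from germ cells, early embryonic cells and the trophoblast lineage. Dnmt1 copies existing methylation onto the new strand after replication. Promoters of germline genes are well-known targets of silencing by methylation in the embryo.

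The sequences upstream of the members' starts are shown because the density of CpG, the site of methylation, differs widely between them. Each is the 250 bases before a transcription start in RefSeq on GRCm38.p6, plus strand, with every CG in capitals. Dnmt3a (chr12:3806730-3806979) had 38 CpG, more than 98.1% of 32851 mouse promoters. Dnmt3b (chr2:153649199-153649448) had 21 CpG, more than 83.7% of promoters. Dnmt3l (chr10:78049592-78049841) had 4 CpG, more than 37.8% of promoters, where the median of all promoters was 6.
Dnmt3a: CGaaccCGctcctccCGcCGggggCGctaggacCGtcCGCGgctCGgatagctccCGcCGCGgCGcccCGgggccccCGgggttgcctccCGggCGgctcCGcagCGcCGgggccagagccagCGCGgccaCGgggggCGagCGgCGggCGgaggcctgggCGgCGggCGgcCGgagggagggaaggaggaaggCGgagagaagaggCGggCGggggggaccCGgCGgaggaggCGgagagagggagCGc
Dnmt3b: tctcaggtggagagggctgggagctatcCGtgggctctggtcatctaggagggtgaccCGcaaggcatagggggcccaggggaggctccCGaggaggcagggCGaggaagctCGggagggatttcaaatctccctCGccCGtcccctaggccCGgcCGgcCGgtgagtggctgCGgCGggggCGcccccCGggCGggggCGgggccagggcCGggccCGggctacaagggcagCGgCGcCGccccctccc
Dnmt3l: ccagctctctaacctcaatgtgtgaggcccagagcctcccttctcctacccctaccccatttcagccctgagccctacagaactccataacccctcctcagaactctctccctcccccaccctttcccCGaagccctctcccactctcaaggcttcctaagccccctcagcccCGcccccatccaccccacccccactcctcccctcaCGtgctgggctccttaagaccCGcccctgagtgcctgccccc
Other annotated starts of Dnmt3a had 40 and 15 CpG and other starts of Dnmt3l had 5 and 3 in windows of the same length. Methylation itself was not measured in these libraries. On mm10 the genes are protein-coding, all on the plus strand: Dnmt3a (ENSMUSG00000020661) spans chr12:3806007-3914443, Dnmt3b (ENSMUSG00000027478) chr2:153649450-153687730 and Dnmt3l (ENSMUSG00000000730) chr10:78041947-78063622. On the opposite strand, Dnmt3bos overlaps the start of Dnmt3b and Aire overlaps the first start of Dnmt3l.

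The libraries held 162336 cell barcodes, of which 128881 had at least 1500 UMIs and 107980 were kept after filters on cell quality and doublets. Kept cells per library ranged from 1361 to 12595, and their summed UMIs from 36466660 to 234392439. Levels are given as CPM, that is UMIs of a gene per 1000000 UMIs of the embryo or of a class in it. Dnmt3b KO 1 and Dnmt3b KO 2 shared 12249 barcodes, 86.5% of the first and 79.3% of the second, against at most 133 in any other of 153 pairs, and were summed to 1 sample (n = 3 for Dnmt3b KO). By Y-linked counts, 1 of 7 WT libraries was male, against 3 of 4 in the Dnmt3b KO and every library of the other KO groups. A reference that held human genes beside those of the mouse had been used for WT 1, Dnmt3b KO 11, Dnmt3a KO 1 and Dnmt3a KO 13. The cells fell into 44 clusters, of which 8 stayed unnamed and the others were named from marker genes, with the Dnmt3 genes kept out of the clustering. A class was used in an embryo with at least 25 cells of it. In 1 cluster each of the extraembryonic (ExE) endoderm, ExE ectoderm, epiblast and ExE mesoderm classes, and in 1 unnamed cluster, Dnmt1 KO embryos gave over 90% of the cells. Such a class can therefore hold different cells in Dnmt1 KO and in WT.

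In WT embryos, Dnmt3a was highest in endothelium and in mesoderm of the trunk and lowest in erythroid cells. Endothelium, the lining of vessels, stood at 50.5 ± 11.9 CPM (SD, n = 7), with a lowest embryo at 36.0, a median of 49.4 and a highest at 71.0. It was followed by presomitic mesoderm at 47.6 ± 7.04 CPM, neuromesodermal progenitors at 45.5 ± 5.00 and somitic mesoderm at 42.3 ± 4.61, the tissues that lengthen the trunk and form somites. Pharyngeal mesoderm (40.9 ± 4.91, n = 6), cardiomyocytes (39.7 ± 8.90) and ExE endoderm (35.9 ± 5.37) came next. Immune cells stood at 29.7 ± 5.05 CPM (n = 3). Neural classes lay lower, with 26.6 ± 2.32 CPM in forebrain and midbrain, 26.6 ± 5.65 in hindbrain and spinal cord and 23.4 ± 2.85 in neural crest (n = 6). ExE mesoderm (16.8 ± 4.62), surface ectoderm (14.1 ± 1.44) and erythroid cells (5.93 ± 0.697) closed the order.

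The ranges of endothelium and surface ectoderm did not overlap, since the highest surface ectoderm value was 16.8 CPM. Next neighbours in the order were closer. In exact two-sided sign-flip permutation tests over WT embryos, 0 of 16 neighbouring pairs differed after Benjamini-Hochberg adjustment and 2 of 16 had an unadjusted p under 0.05. Those were neural crest over ExE mesoderm, higher in 6 of 6 embryos by 0.59 on the log2 scale (exact p = 0.0312, adjusted p = 0.25), and surface ectoderm over erythroid cells, higher in 7 of 7 by 1.12 (exact p = 0.0156, adjusted p = 0.25). With 7 embryos, 0.0156 is the smallest p that this exact test can give, and pairs with fewer embryos cannot reach it. A single pair at that p has an adjusted p of 0.25 over 16 pairs. The count of 0 of 16 was therefore nearly fixed by the design and does not show that neighbours have equal levels.

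The order of Dnmt3b was a different one. Surface ectoderm, which forms skin and placodes, led with 150 ± 31.4 CPM (n = 7), from 103 in the lowest embryo through a median of 155 to 201 in the highest. Forebrain and midbrain (129 ± 37.6), neural crest (125 ± 35.7, n = 6) and immune cells (115 ± 12.6, n = 3) followed. Neuromesodermal progenitors (78.9 ± 16.1), hindbrain and spinal cord (70.9 ± 24.7), presomitic mesoderm (65.1 ± 13.2) and somitic mesoderm (63.7 ± 17.8) lay in the middle. Endothelium stood at 43.7 ± 5.24 CPM, allantois at 33.0 ± 6.50, cardiomyocytes at 19.1 ± 4.50 and erythroid cells at 12.7 ± 3.70. Cardiomyocyte values ran from 11.3 to 24.6 CPM, all below the surface ectoderm values.

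Of 16 neighbouring pairs for Dnmt3b, 0 differed after adjustment and 4 had an unadjusted p under 0.05. The limits of the test given for Dnmt3a hold here too, so this count does not show equal levels. Surface ectoderm exceeded forebrain and midbrain in 7 of 7 embryos by 0.25 on the log2 scale, allantois exceeded cardiomyocytes in 7 of 7 by 0.76, and cardiomyocytes exceeded erythroid cells in 7 of 7 by 0.57 (each exact permutation p = 0.0156, adjusted p = 0.0833). Gut endoderm exceeded endothelium in 6 of 7 by 0.18 (exact permutation p = 0.0469, adjusted p = 0.188). Across the 17 class means, Dnmt3a and Dnmt3b had a Pearson correlation of 0.169 on log2(CPM + 1). The classes share their libraries, so this value only describes them.

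**Figure D1:**
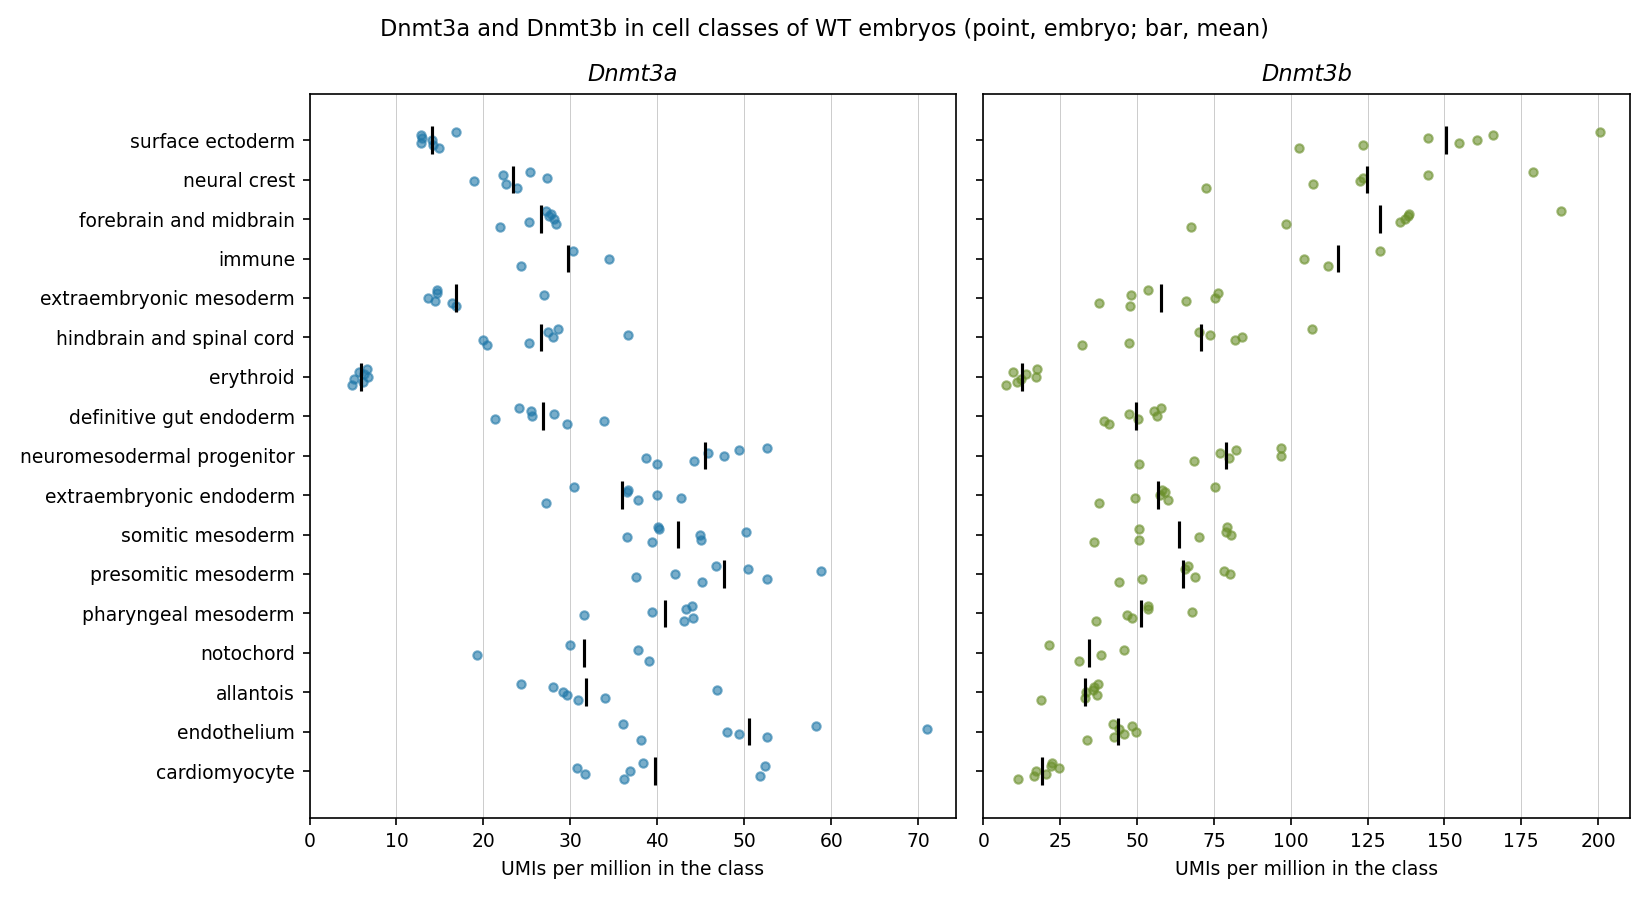
Dnmt3a (left) and Dnmt3b (right) in cell classes of WT embryos, in CPM of the class, with 1 point per embryo and a bar at the mean. The classes are in the same order in both panels, from surface ectoderm at 14.1 and 150 CPM to cardiomyocytes at 39.7 and 19.1 CPM.

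The balance of both enzymes, as the log2 ratio of Dnmt3b to Dnmt3a UMIs in an embryo, therefore shifted between classes. It was 3.39 ± 0.32 (SD, n = 7) in surface ectoderm, 2.37 ± 0.46 (n = 6) in neural crest and 2.22 ± 0.39 in forebrain and midbrain. In the trunk it was 0.77 ± 0.24 in neuromesodermal progenitors, 0.54 ± 0.43 in somitic mesoderm and 0.44 ± 0.38 in presomitic mesoderm. It was lowest in endothelium (-0.18 ± 0.29) and cardiomyocytes (-1.06 ± 0.51). The ratio is compared between classes only, since UMIs of different genes need not be captured alike. In Dnmt1 KO embryos the classes that WT embryos hardly had were at the upper end, with 4.07 ± 0.24 in ExE ectoderm and 2.76 ± 0.19 in epiblast (n = 3).

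**Figure D2:**
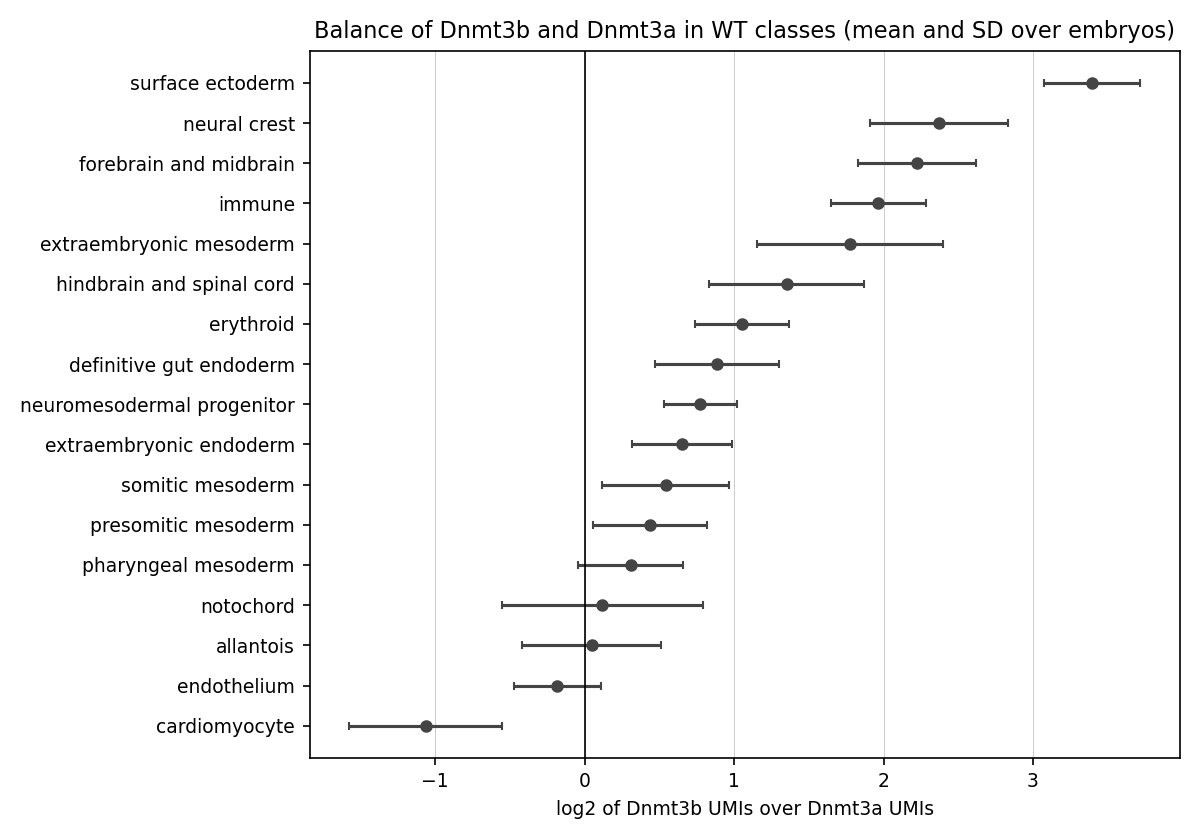
Log2 ratio of Dnmt3b UMIs to Dnmt3a UMIs in WT cell classes, as the mean over embryos with the SD as a bar. The ratio runs from -1.06 in cardiomyocytes to 3.39 in surface ectoderm.

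Dnmt3l was near the limit of detection in WT embryos, with 430 UMIs in all 7 libraries against 34628 of Dnmt3a. The levels were 0.165, 0.188, 0.157, 0.356, 0.159 and 0.248 CPM in WT 1, 3, 4, 5, 6 and 7 and 1.43 CPM in WT 2. WT 2 stood apart because of 1 class. It held 125 of the 127 WT cells classed as ExE ectoderm, the trophoblast tissue, in which Dnmt3l stood at 68.2 CPM and which gave 205 of its 236 Dnmt3l UMIs. Parietal endoderm, which had too few cells in every embryo to be used as a class, held 13 Dnmt3l UMIs in 10 WT cells (8 of these cells from WT 5) and 12 in 20 Dnmt1 KO cells. In the classes shared by WT embryos the level was highest in ExE mesoderm (0.680 ± 0.535 CPM, n = 7), in forebrain and midbrain (0.560 ± 0.342) and in somitic mesoderm (0.276 ± 0.179). Of 16 neighbouring pairs, 0 had an unadjusted p under 0.05. Pairs of classes that both held no UMI could not differ. No UMI was seen in endothelium, immune cells, notochord or pharyngeal mesoderm of WT embryos, which allows at most 0.0595, 0.607, 0.921 and 0.095 CPM at 3 counts over the group, for counting error only.

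The genes with the most similar profile were sought over the 17 class means of WT embryos, among 10491 genes that reached 10 CPM in a class. For Dnmt3a they were Mphosph9 (r = 0.836), Zfp57 (0.792), a zinc finger protein that keeps imprints methylated, Tecpr1 (0.788), Rnf115 (0.784) and Fbxw11 (0.779). For Dnmt3b they were Kat14 (0.868), Sumo3 (0.843), Fjx1 (0.838), Mrps27 (0.819) and Fubp3 (0.815). For Dnmt3l, whose profile rests on few UMIs, they were Vwc2 (0.786), Axl (0.736), Rad23b (0.733), Ikzf4 (0.727) and Sult5a1 (0.725). Within a list of 34 genes of the methylation pathway, the highest correlations with Dnmt3b were those of Hells (0.753), a chromatin remodeller needed for DNA methylation, L3mbtl2 (0.673) and Cdca7 (0.658), a partner of Hells. With Dnmt3a they were those of Zfp57 and of Nsd1 (0.549), which sets the H3K36 dimethylation that Dnmt3a reads. The lowest with Dnmt3a was that of Mbd2 (-0.38). Class means share libraries and depth, so these correlations are descriptive.

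The first comparison between groups asked whether each KO carried less transcript of its own targeted gene. Dnmt3a fell in the Dnmt3a KO. The levels were 8.59, 9.74, 7.49 and 11.7 CPM in Dnmt3a KO 1, 2, 13 and 14, and 23.1, 26.9, 29.4, 31.9, 35.1, 31.8 and 30.5 CPM in WT 1 to 7. The groups did not overlap, which held for 0.16% of all genes in this direction. With means of 9.39 ± 1.81 CPM (n = 4) and 29.8 ± 3.89 CPM (n = 7), the log2 fold change was -1.69 (SE 0.25, edgeR adjusted p = 0.00243). To be called, a gene needed an adjusted p under 0.01 together with an absolute log2 fold change of at least 1. Dnmt3a was 1 of 2 genes called lower of 18757 tested (0.0107%). Leaving out Dnmt3a KO 1, 2 or 13 raised the adjusted p to 0.0135, 0.0131 or 0.0213, so the call rested on all of these libraries, while the change stayed between -1.73 and -1.61 when any 1 library was left out. The call was also lost with the replicate number as a block (-1.55), as given in a later section.

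Dnmt3b was not lower in the Dnmt3b KO. The levels were 54.4, 60.2, 63.6 and 68.4 CPM in the libraries labelled Dnmt3b KO 1, 2, 11 and 12 and between 35.6 and 87.3 CPM in WT, so that all Dnmt3b KO libraries lay inside the WT range. The log2 fold change was -0.00015 (SE 0.18, adjusted p = 1), where 1.8% of all genes were called in either direction. Within classes edgeR called Dnmt3b in 0 of 15, as did DESeq2, with 2 at an unadjusted p under 0.05 (of the tests over all genes and classes, 0.685% gave a call). As the deleted exons were not given, a count at the 3' end that stays at the WT level does not check the label. In the Dnmt3a KO, Dnmt3b stood at 54.1, 57.8, 45.9 and 65.1 CPM, again within the WT range (log2 fold change -0.17, SE 0.17, adjusted p = 0.799), with 0 of 17 classes called by either tool (0.119% over all genes and classes) and 3 at an unadjusted p under 0.05.

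Dnmt3a divided the libraries labelled Dnmt3b KO. It stood at 32.07 and 32.09 CPM in Dnmt3b KO 1 and 2, inside the WT range, at 15.1 CPM in Dnmt3b KO 11 and at 7.58 CPM in Dnmt3b KO 12. Dnmt3b KO 11 lay between the Dnmt3a KO and WT values, and Dnmt3b KO 12 lay within the Dnmt3a KO range. Over the group the log2 fold change against WT was -0.74 (SE 0.27, adjusted p = 0.155), and without Dnmt3b KO 11 and 12 it was 0.033. Between Dnmt3b KO and Dnmt3a KO it was 0.95 (SE 0.28, adjusted p = 0.248, with 0.208% of all genes called). It was 1.31 without Dnmt3b KO 12 and 1.72 without Dnmt3b KO 11 and 12, which leaves a single sample. The libraries left out are those with the least Dnmt3a of the group, so these values without them are a description, with no test. The labels name a single disrupted gene for each of these libraries. The processing was not the same within this group. Dnmt3b KO 11 was counted on the combined reference, where Dnmt3a stood at 23.1 CPM in WT 1 and at 8.59 and 7.49 CPM in Dnmt3a KO 1 and 13. With a covariate for that reference the change in Dnmt3b KO was -0.69 (edgeR adjusted p = 0.195). Dnmt3b KO 12 alone was counted with another version of Cell Ranger. By Y-linked counts it was also the only library of this group that was not male (0.0122 CPM against 92.5 CPM or more). Version, sex and library therefore cannot be told apart.

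In the Dnmt1 KO, Dnmt3a stood at 38.2, 26.7 and 32.0 CPM and overlapped WT (log2 fold change 0.18, SE 0.26, adjusted p = 0.606).

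**Figure D3:**
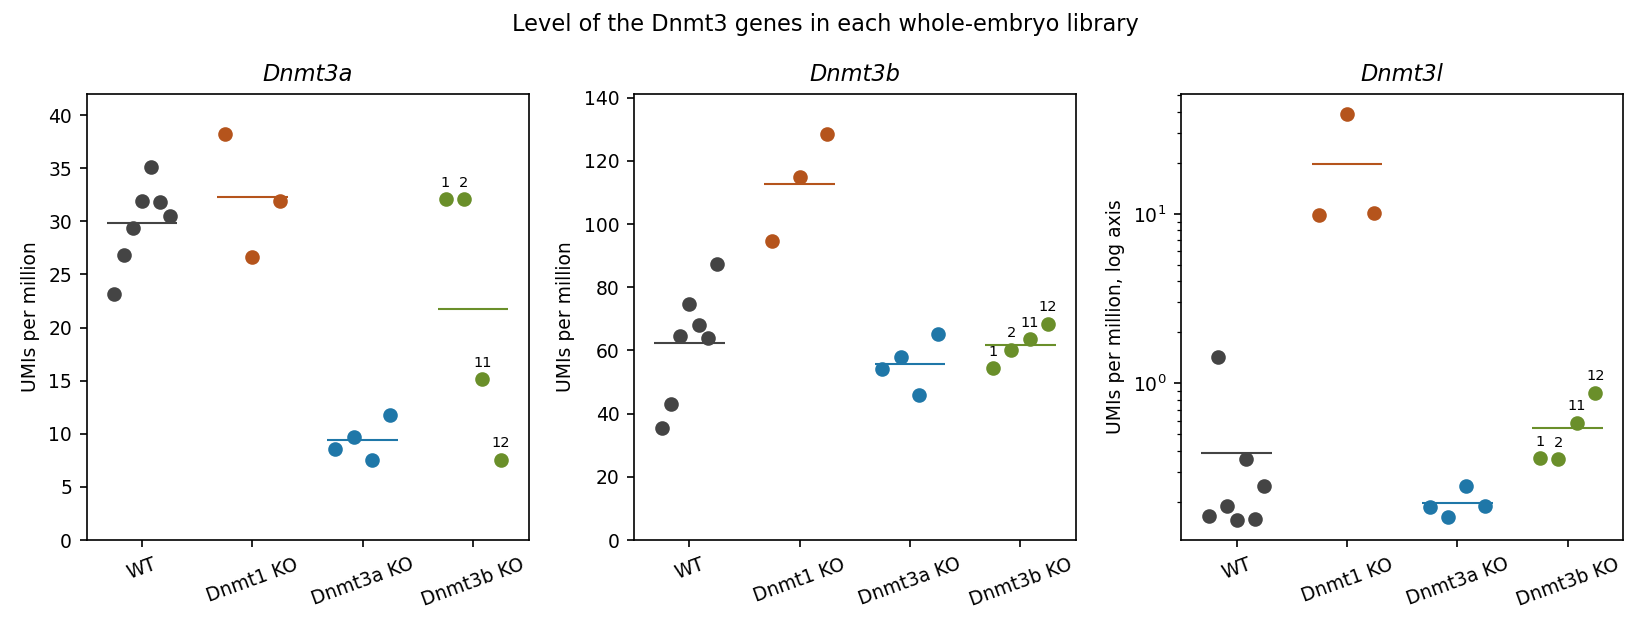
Level of Dnmt3a, Dnmt3b and Dnmt3l in each whole-embryo library, in CPM (log axis for Dnmt3l), with a line at the mean over the libraries of a group (over 4 libraries for Dnmt3b KO). The numbers mark the Dnmt3b KO libraries, which divide in Dnmt3a (32.07 and 32.09 against 15.1 and 7.58 CPM) but not in Dnmt3b.

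The lower Dnmt3a level of the Dnmt3a KO was seen in each cell class. Every Dnmt3a KO embryo lay below every WT embryo in 17 of 17 classes, which held for 0.59% of all genes over these classes (between 0.0903% and 3.7% of the genes of a class). Called were 8 of 17 classes, where 0.0206% of genes were called lower (at most 0.138% in a class): erythroid cells, ExE endoderm, ExE mesoderm, hindbrain and spinal cord, neural crest, neuromesodermal progenitors, presomitic mesoderm and somitic mesoderm. The largest change was that of ExE endoderm, at 7.79, 8.33, 5.31 and 6.68 CPM in the KO and from 27.2 to 42.7 CPM in WT (log2 fold change -2.37, SE 0.28, adjusted p = 8.7e-05). The smallest was that of ExE mesoderm, with 7.01, 9.53, 6.58 and 7.98 CPM against 13.7 to 27.0 CPM (-1.08, SE 0.17, adjusted p = 0.00488). Endothelium, the class with most Dnmt3a in WT, stood at 18.1, 21.0, 14.6 and 23.4 CPM against 36.0 to 71.0 CPM (-1.38, SE 0.28, adjusted p = 0.0401, not called).

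The number of classes called changed with the fit. It was 15 of 17 without Dnmt3b KO 11 and 12 and 14 of 17 without Dnmt3b KO 12 alone, libraries singled out for their Dnmt3a level. It was 14 of 17 with DESeq2 and 4 of 17 with a covariate for the reference. Without any one of WT 3, 4, 6 and 7 or of the Dnmt3a KO libraries it was between 2 and 5. All 17 changes were negative and had an unadjusted p under 0.05. As fewer cells of a type and less RNA per cell cannot be told apart in sums over an embryo, the level was also averaged over 13 classes with fixed weights. It was then 8.97 ± 1.45 CPM in Dnmt3a KO and 29.3 ± 2.97 CPM in WT, lower in 4 of 4 KO embryos (exact two-sided permutation test, p = 0.00606, adjusted over 9 tests p = 0.05, which was not below the threshold of 0.05). The unadjusted p is the smallest that this exact test can give with these numbers of embryos.

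The same classes were compared for single Dnmt3b KO samples. Dnmt3b KO 11 lay below every WT embryo in 17 of 17 classes, at a median of 0.468 times the WT mean, where 19.9% of all genes did so over these classes. Dnmt3b KO 12 did in 15 of 15 classes, at 0.234 times, where 22.4% of genes did. The classes of a sample share its library, so these counts are not independent. The summed sample of Dnmt3b KO 1 and 2 lay below every WT embryo in 0 of 17 classes (6.52% of genes) and above in 4 (15.5% of genes), at 1.14 times. In endothelium, for example, the values were 64.4, 34.5 and 10.5 CPM for Dnmt3b KO 1 and 2, 11 and 12, in surface ectoderm 17.5, 6.24 and 3.24 CPM, and in erythroid cells 5.90, 2.67 and 1.02 CPM. Immune cells of Dnmt3b KO 12 stood apart in both enzymes, with 0.843 CPM of Dnmt3a and 39.1 CPM of Dnmt3b in 424 cells, beside 29.5 and 130 CPM in Dnmt3b KO 1 and 2. The whole class differed in that library, since 54.4% of all genes tested in immune cells lay below every WT embryo there, against 14.9% in Dnmt3b KO 1 and 2 and 31.4% in Dnmt3b KO 11, which had 102 and 41 immune cells. Whether these are the same kinds of cells was not tested. In the fit, 0 of 15 classes were called for Dnmt3a in this group by edgeR and by DESeq2, with 12 at an unadjusted p under 0.05 (between 0% and 0.146% of genes were called lower in a class).

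**Figure D4:**
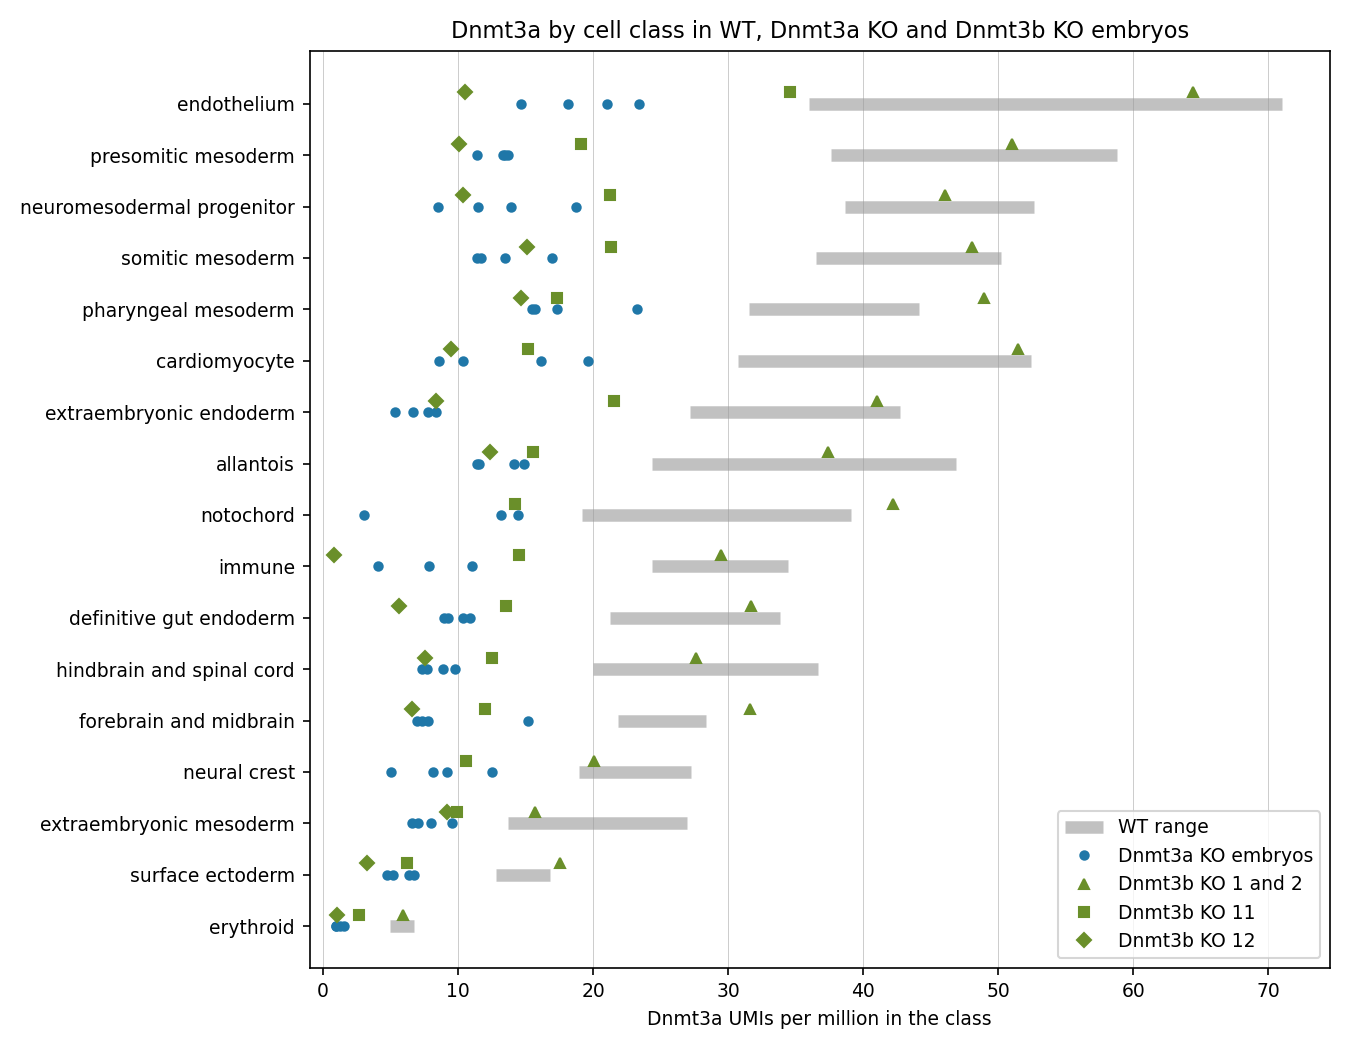
Dnmt3a in each cell class, in CPM of the class, as the range of WT embryos (grey), Dnmt3a KO embryos (circles) and the Dnmt3b KO samples. The Dnmt3a KO embryos lie left of the WT range in all 17 classes, as do Dnmt3b KO 11 in 17 of 17 and Dnmt3b KO 12 in 15 of 15, while Dnmt3b KO 1 and 2 do not.

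A list of 18 germline genes known to be silenced by promoter methylation was read in the same libraries. The list was chosen with earlier results of these data known, so its values describe the libraries and are no independent support. Called higher were 17 of 18 in the Dnmt1 KO (8.16% of all genes), 7 of 18 in the Dnmt3a KO (0.197%) and 16 of 18 in the Dnmt3b KO (1.77%), with medians of 4.43, 2.02 and 4.11 on the log2 scale against 0.01, 0.00 and -0.01 over all genes. The comparisons share the WT embryos. In the Dnmt3a KO, Stk31 rose by 3.02 (SE 0.27, adjusted p = 4.6e-05), Slc25a31 by 2.55, Ddx4, a helicase of germ cells, by 1.84, and Hormad1, Rpl39l, Syce1 and Tex15 were also called. In the Dnmt3b KO, Dazl, an RNA-binding protein of germ cells, rose by 8.71 (SE 0.89, adjusted p = 7.4e-06) and Sycp1, a part of the synaptonemal complex, by 5.76. Per library, the genes of the list exceeded their WT means by a median of 0.52, 0.94, 0.78 and 1.04 in Dnmt3a KO 1, 2, 13 and 14 on the scale of log2(CPM + 0.5). It was 1.86, 1.91, 2.16 and 2.99 in Dnmt3b KO 1, 2, 11 and 12, and 3.17, 3.09 and 2.58 in Dnmt1 KO 1 to 3. WT libraries lay between -0.11 and 0.21. On this list the libraries labelled Dnmt3b KO, of which 1 and 2 count as 1 sample, lay above every Dnmt3a KO library, with Dnmt3b KO 12 the highest.

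Dnmt3b was higher in whole Dnmt1 KO embryos. It stood at 94.6, 115 and 128 CPM in Dnmt1 KO 1 to 3, all above the highest WT embryo at 87.3 CPM, as did 11% of all genes. The log2 fold change was 0.94 (SE 0.17, adjusted p = 0.000503), so the adjusted p passed while the size stayed short of 1 and the gene was not called. It was called without WT 7 (1.03) or without Dnmt1 KO 1 (1.06). In all, 5 of 29 alternatives brought the gene past the call, with a change of up to 1.27. Among them were a covariate for Y-linked counts and the replicate number as a block, given in a later section. Most of these UMIs came from classes that WT embryos hardly had. Epiblast-like cells, named from markers of the pluripotent tissue of the early embryo, were 12.7% of the Dnmt1 KO cells and gave 34.1% of the Dnmt3b UMIs, at 232, 269 and 315 CPM. ExE ectoderm was 16.9% of the cells and gave 28.3% of the UMIs, at 192, 160 and 177 CPM, beside 109 CPM in the ExE ectoderm of WT 2. The WT 2 cells of that class were shallower, with a median of 3803 UMIs against medians of 43032.5 to 77238 in the KO embryos. With the weights of 4 shared classes fixed, Dnmt3b stood at 62.7 ± 9.19 CPM in Dnmt1 KO and 52.7 ± 7.67 CPM in WT (exact two-sided permutation test, p = 0.133, adjusted p = 0.2, 1 of 3 KO embryos above every WT embryo).

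Within classes, the change in the Dnmt1 KO had no common direction. Dnmt3b was higher in gut endoderm, with 64.2, 102 and 64.0 CPM against 39.3 to 57.9 CPM (log2 fold change 0.74, SE 0.15, adjusted p = 0.000896). In endothelium it stood at 64.0, 69.4 and 73.9 CPM against 33.7 to 49.7 CPM (0.70, SE 0.13, adjusted p = 0.000326), and in pharyngeal mesoderm at 69.8, 75.4 and 85.2 CPM against 36.7 to 67.9 CPM (0.70, SE 0.14, adjusted p = 0.00151). In immune cells it was lower, with 57.4, 51.8 and 46.4 CPM against 112, 104 and 129 CPM in the 3 WT embryos that had enough of them (-1.04, SE 0.29, adjusted p = 0.0416). Immune cells were 6.09% ± 1.82 of the cells in Dnmt1 KO embryos (n = 3) and 0.514% ± 0.209 in WT embryos (n = 7), and whether the class held the same kinds of cells in both was not tested. ExE endoderm (0.08, adjusted p = 0.718) and ExE mesoderm (-0.31, adjusted p = 0.18) did not pass, and 1 cluster of each class held almost only Dnmt1 KO cells (97.6% and 98.2% of the cells used for clustering). Every KO embryo lay above every WT embryo in 3 of 6 classes, which held for 11.2% of genes over these classes, and 0 of 6 classes were called by edgeR and 1 by DESeq2, where 7.33% of genes were called by edgeR (between 1.71% and 11.9% in a class). In immune cells every KO embryo lay below every WT embryo, as did 18.7% of genes over the classes (between 13.9% and 29% in a class). Only 3 WT embryos entered there, so groups separate more easily than in classes with more embryos. An unadjusted p under 0.05 was seen in 4 classes. Gut endoderm and endothelium rest on 28 to 42 cells in all but 1 of the Dnmt1 KO values.

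Dnmt3a within classes of the Dnmt1 KO was called in 0 of 6 by edgeR and by DESeq2, with 1 at an unadjusted p under 0.05. In ExE mesoderm it stood at 30.02, 26.2 and 22.5 CPM against 13.7 to 27.0 CPM in WT, with an overlap through WT 5 alone (log2 fold change 0.81, SE 0.16, adjusted p = 0.000563, below the size for a call). In gut endoderm all KO embryos, at 19.8, 14.7 and 16.3 CPM, lay below the lowest WT embryo at 21.3 CPM, as did 19.6% of the genes tested in that class (-0.55, SE 0.35, adjusted p = 0.269). In the other 4 classes the changes ran from -0.12 to 0.38, none past the test. With the weights of 4 shared classes fixed, Dnmt3a stood at 40.1 ± 2.09 CPM in Dnmt1 KO and 34.9 ± 4.59 CPM in WT (exact two-sided permutation test, p = 0.0333, adjusted p = 0.075).

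Dnmt3l rose in the Dnmt1 KO. It stood at 9.86, 39.0 and 10.1 CPM in Dnmt1 KO 1 to 3, each above the highest WT library at 1.43 CPM. The log2 fold change was 5.72 (SE 0.63, adjusted p = 2.9e-06), and the gene was called higher, as were 8.16% of all genes. The change stayed between 4.71 and 6.74 and past the call under all 29 alternatives. ExE ectoderm gave 6579 of the 6890 Dnmt3l UMIs, or 95.5%. There the level was 134, 106 and 121 CPM in the 3 KO embryos and 68.2 CPM in WT 2, the only WT embryo with enough cells of this class, which was not tested because the tests were limited to classes with 3 embryos a group. The WT 2 cells of this class held a median of 3803 UMIs, against medians of 43032.5 to 77238 in the KO embryos. How far this difference in depth enters the levels was not tested. Dnmt1 KO 2, the embryo with the highest whole-embryo value, held 928 of the 1112 ExE ectoderm cells.

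Outside the trophoblast, Dnmt3l was seen at low levels in Dnmt1 KO embryos. In pharyngeal mesoderm, with 0 UMIs in 6 WT embryos, it stood at 1.58, 2.16 and 2.05 CPM (12, 8 and 26 UMIs). In endothelium, with 0 UMIs in 7 WT embryos, it stood at 2.56, 1.83 and 0.591 CPM (4, 2 and 1 UMIs), and in immune cells at 0.448, 1.17 and 0.222 CPM (3, 10 and 1 UMIs) against 0 in 3 WT embryos. In gut endoderm it stood at 0.494, 1.76 and 1.57 CPM against 0 to 0.348 CPM. Every KO embryo lay above every WT embryo in these 4 of 6 classes (between 8.19% and 14% of genes in a class). Those shares are over genes that passed the filter on low counts, as Dnmt3l did in gut endoderm alone. A gene with no UMI in WT separates as soon as every KO embryo holds a UMI, so the shares are no close measure for it. The other classes did not separate. ExE endoderm stood at 0.0726, 1.45 and 0 CPM (3, 59 and 0 UMIs) against at most 0.0948 CPM in WT, with nearly all UMIs from Dnmt1 KO 2, the embryo with most ExE ectoderm cells. ExE mesoderm stood at 1.31, 2.78 and 1.48 CPM (20, 34 and 20 UMIs) against 0 to 1.32 CPM in WT. Epiblast-like cells, with no WT class to compare, stood at 0.670, 1.66 and 1.73 CPM. Of the 6 classes, gut endoderm alone passed the filter on low counts. No WT or Dnmt3a KO embryo exceeded 0.478 CPM there, so the gene passed through the KO samples in which it was high, and its fitted fold change and p are not given as support. With the weights of 4 shared classes fixed, the mean was 1.06 ± 0.604 CPM against 0.125 ± 0.0480 CPM, higher in 3 of 3 KO embryos (exact two-sided permutation test, p = 0.0167, adjusted p = 0.05, not below the threshold). The unadjusted p is the smallest that this test can give with these numbers of embryos. The difference of 3.09 on the log2 scale was 2.52 without Dnmt1 KO 2. It was 5.23 with at least 50 cells a class, which leaves ExE endoderm alone (0.508 ± 0.818 against 0.0135 ± 0.0358 CPM, 1 of 3 KO embryos above every WT embryo, exact permutation adjusted p = 0.45).

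Markers of ExE ectoderm were compared in the same classes and moved with Dnmt3l in only some of them. The 8 markers Elf5, Esx1, Rhox6, Rhox9, Ascl2, Plac1, Wnt7b and Tfap2c summed to between 881 and 1191 CPM in the ExE ectoderm of Dnmt1 KO embryos. In their pharyngeal mesoderm the sum was between 30.8 and 60.3 CPM, where 7 of 8 were seen in each embryo, against 6.87 to 12.2 CPM in WT. It was also higher without overlap in gut endoderm (38.8 to 70.6 against 12.4 to 30.2 CPM) and in immune cells (21.7 to 33.4 against 4.88 to 17.3 CPM), while in endothelium the groups overlapped (59.7 to 109 against 49.6 to 97.1 CPM). In ExE mesoderm, where Dnmt3l overlapped WT, the sum was higher without overlap (109 to 164 against 46.3 to 63.9 CPM). In ExE endoderm the sum was not higher (90.4 to 117 against 110 to 169 CPM). Per 1000 UMIs of the markers there were 96.3 UMIs of Dnmt3l in the ExE ectoderm of Dnmt1 KO embryos. The number was 46.7 in pharyngeal mesoderm, 33.1 in epiblast-like cells, 24.3 in immune cells, 22.7 in gut endoderm and 19.6 in endothelium. It was 12.98 in ExE mesoderm and 6.65 in ExE endoderm. The markers were thus more abundant per Dnmt3l UMI in these classes than in the ExE ectoderm of Dnmt1 KO embryos. In the only WT embryo with enough ExE ectoderm cells, the number in that class was 48.2, close to that of pharyngeal mesoderm in the KO. For pharyngeal mesoderm the contrast therefore depends on which ExE ectoderm is used. The markers did not keep 1 ratio. In pharyngeal mesoderm Rhox6 (514 UMIs), Plac1 (280) and Rhox9 (144) made up most of the 985 marker UMIs, whereas Elf5, the defining factor of trophoblast stem cells, had 8 UMIs, or 0.174 per Dnmt3l UMI against 0.812 in ExE ectoderm. The part of RNA from ExE ectoderm in the low levels was not tested.

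**Figure D5:**
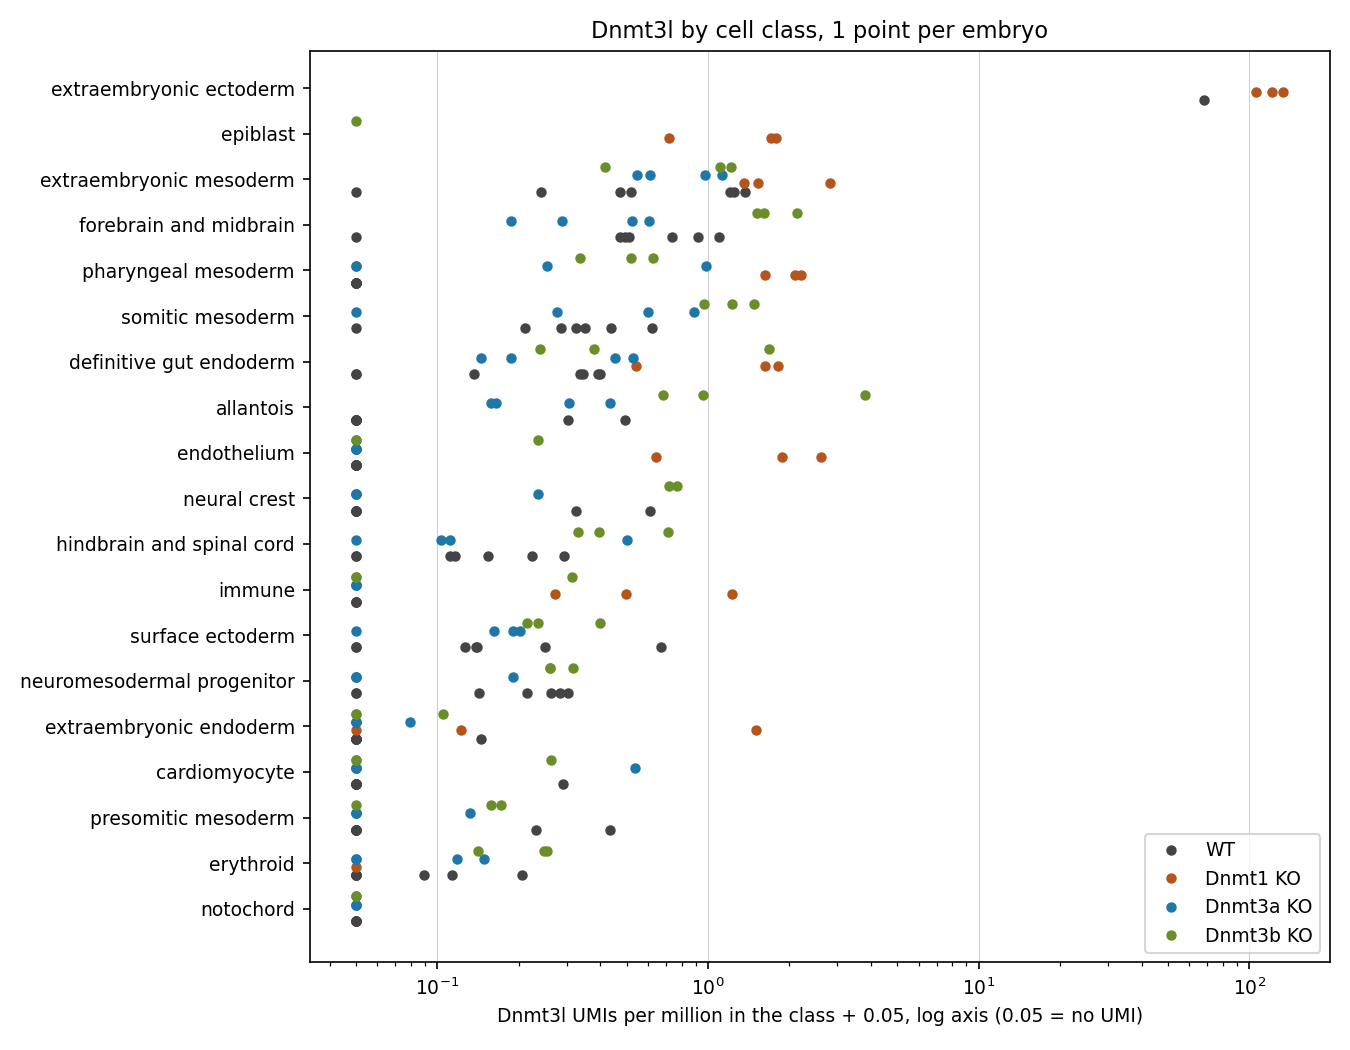
Dnmt3l by cell class, in CPM of the class plus 0.05 on a log axis, with 1 point per embryo and points at 0.05 for embryos with no UMI. The 3 Dnmt1 KO embryos and WT 2 lie between 68.2 and 134 CPM in ExE ectoderm, and the highest value of any other class with enough cells is 3.75 CPM.

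In the Dnmt3b KO, Dnmt3l was not called in the whole embryo. It stood at 0.362, 0.355, 0.583 and 0.879 CPM in Dnmt3b KO 1, 2, 11 and 12, whereas 6 of 7 WT libraries lay between 0.157 and 0.356 CPM and WT 2 at 1.43 CPM. The log2 fold change was 0.58 (SE 0.65, adjusted p = 0.684), 1.60 without WT 2 and -0.21 without Dnmt3b KO 11 and 12. Within classes every Dnmt3b KO sample lay above every WT embryo in 5 of 15, which held for 3.02% of genes over these classes (between 2.03% and 5.42% in a class). These were allantois (0.632, 0.909 and 3.75 CPM against at most 0.442), forebrain and midbrain (1.55, 2.09 and 1.46 against at most 1.04), somitic mesoderm (1.18, 1.43 and 0.914 against at most 0.573), hindbrain and spinal cord (at least 0.282 against at most 0.243) and pharyngeal mesoderm (at least 0.286 against 0). The values rest on between 2 and 21 UMIs a sample. The shares given are over genes that passed the filter on low counts, as Dnmt3l did in 2 of 15 classes. They are therefore no close measure for a gene with few or no UMIs in WT. The summed ExE ectoderm markers were also above every WT embryo in 3 of these 5 classes, namely pharyngeal mesoderm (20.4 to 98.2 against 6.87 to 12.2 CPM), somitic mesoderm (7.32 to 26.5 against 2.29 to 6.60 CPM) and hindbrain and spinal cord (11.4 to 13.8 against 6.16 to 11.04 CPM). They overlapped WT in forebrain and midbrain (8.44 to 16.96 against 4.50 to 18.4 CPM) and in allantois (201 to 320 against 75.5 to 307 CPM). The markers also lay above every WT embryo in classes where Dnmt3l did not separate. These were cardiomyocytes (25.5 to 232 against 6.44 to 14.8 CPM), gut endoderm, ExE mesoderm, neuromesodermal progenitors, presomitic mesoderm and surface ectoderm. They overlapped WT in endothelium, erythroid cells, ExE endoderm and immune cells. A rise of the markers was thus not particular to the classes with more Dnmt3l, and their part in the Dnmt3l values was not tested. Allantois and gut endoderm were highest in Dnmt3b KO 12, at 3.75 and 1.63 CPM.

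Dnmt3l passed the filter on low counts in 2 of 15 classes, forebrain and midbrain and gut endoderm, where the highest values were those of KO samples. A gene that passes through the group in which it is high had to differ, so the fitted values are not given as support. By edgeR and by DESeq2, 0 of these 2 classes were called. In gut endoderm the high value was that of Dnmt3b KO 12 alone (1.63 CPM). The other samples stood at 0.328 and 0.190 CPM, against at most 0.348 CPM in WT. With 13 classes at fixed weights the mean was 0.458 ± 0.150 CPM in Dnmt3b KO and 0.143 ± 0.0367 CPM in WT, higher in 3 of 3 samples (exact two-sided permutation test, p = 0.0167, adjusted p = 0.05, not below the threshold). Here too the unadjusted p is the smallest possible with these numbers of samples. In the Dnmt3a KO the same mean was 0.143 ± 0.0409 CPM (exact permutation p = 1), and the whole-embryo levels of 0.186, 0.163, 0.246 and 0.188 CPM lay among those of WT.

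The other genes of the methylation pathway were counted in the same fit. Among 34 genes in lists of de novo partners (16), maintenance (6), demethylation (6) and methyl-CpG binding (6), 0 were called in the Dnmt3a KO and 0 in the Dnmt3b KO by edgeR and by DESeq2. An unadjusted p under 0.05 was seen for 4 and 11 of them, beside 9.56% and 17.8% of all genes. In the Dnmt1 KO, 0 were called higher and 2 lower (6.04% of all genes), namely Dnmt1 itself (log2 fold change -2.70, SE 0.12, adjusted p = 9.0e-11) and Mbd2, a reader of methylated CpG (-1.35, SE 0.19, adjusted p = 4.6e-05). Hells (0.49, adjusted p = 0.0147) and Cdca7 (-0.44, adjusted p = 0.0139) did not pass. Uhrf1, which brings Dnmt1 to hemimethylated DNA, changed by -0.29 (adjusted p = 0.0266) and Tet1, an oxidase of methylcytosine, by 0.20 (adjusted p = 0.435). The medians of the 34 genes were -0.15, -0.11 and -0.13 in the Dnmt1, Dnmt3a and Dnmt3b KO.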

How the data were processed

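The 18 single-cell libraries of E8.5 embryos (10x 3' v3 chemistry) were compared as 17 samples. The authors aligned the reads to mm10 and counted UMIs per gene and barcode with Cell Ranger, and the deposited matrices hold these raw counts. The file headers name version 3.1.0 for 17 libraries and 5.0.0 for 1 (Dnmt3b KO 12). From these counts, barcodes with at least 1500 mouse UMIs, at most 30% mitochondrial and at most 35% ribosomal UMIs were kept, and predicted doublets (0.8% per 1000 cells) were removed. Cells were clustered with scanpy 1.11.5 and leidenalg 0.10.2 (2500 variable genes, 50 principal components, 30 neighbours, resolution 2) from up to 1500 cells per library, and named from marker genes. Counts were summed per embryo and per class with at least 25 cells in at least 3 embryos a group.

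Sums of 4 groups were fitted together with edgeR 4.0.16 in R 4.3.3 (TMM, filterByExpr, quasi-likelihood test, Benjamini-Hochberg over all genes). The SE is the absolute log2 fold change over the square root of F. DESeq2 1.42.0 was an alternative, beside other filters, thinning, covariates and left-out libraries. Only the whole-embryo fit was tested on simulated counts, with changes set in the Dnmt3a KO group. The class fits and the permutation tests were not tested in this way. The labels give 1 embryo per library, but Dnmt3b KO 1 and 2 share most barcodes and were summed to 1 sample. Levels at fixed composition are class CPM averaged with the mean WT shares of the classes found in all embryos compared, tested by exact permutation over embryos.

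Genes named are the members, genes of the pathway and germline lists where called or as examples, called genes within 1 Mb of a member, and the 5 genes most correlated with each member. The members and the lists were chosen with earlier results of these data known. Intervals and limits cover counting error only. Promoter sequences came from RefSeq on GRCm38.p6, where all 3 members matched by symbol.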

Additional observations from a re-analysis of the deposited data

Results flagged for a closer look

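Levels were screened for an embryo far from the others of its group, in 68 groups of 4 to 7 embryos, of which 7 had one. Chance gives about 1 in 20. Dnmt3a of WT 5 stood at 46.8 CPM in allantois, where the other WT embryos lay between 24.4 and 34.0, and at 27.0 CPM in ExE mesoderm, where they lay between 13.7 and 16.8. WT 5 is the library with the fewest kept cells (1361). Dnmt3a of WT 3 stood at 31.5 CPM in pharyngeal mesoderm, below the range of 39.4 to 44.1 CPM. Dnmt3a KO 14 stood at 15.1 CPM of Dnmt3a in forebrain and midbrain, above the 6.96 to 7.79 CPM of the other Dnmt3a KO embryos, and at 57.8 CPM of Dnmt3b in endothelium, above 41.4 to 44.1 CPM. Dnmt3b of WT 1 stood at 18.7 CPM in allantois, below 33.0 to 37.1 CPM. Dnmt3l of WT 2 stood at 1.43 CPM in the whole embryo, above 0.157 to 0.356 CPM, and 125 of its cells were classed as ExE ectoderm.

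In the Dnmt1 KO, Dnmt3b moved in opposite directions between classes. All 3 embryos were above every WT embryo in gut endoderm, endothelium and pharyngeal mesoderm and below every WT embryo in immune cells. Over the classes 11.2% of genes lay above in this way and 18.7% below. The log2 ratios of mean CPM were 0.63, 0.66 and 0.58 against -1.15, which are differences of 1.78, 1.81 and 1.74. These differences between classes were not tested.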

How the results depend on the processing

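Of 881 alternatives, 798 kept the direction of their result and its side of the threshold, and for 15 results all alternatives did. A covariate for Y-linked counts gave -0.49 for Dnmt3a in Dnmt1 KO, 1.22, 0.11 and 0.17 for Dnmt3b in Dnmt1, Dnmt3a and Dnmt3b KO, and 1 class called for Dnmt3a in Dnmt1 KO and 1 in Dnmt3b KO. Without Dnmt3b KO 11 and 12, which are singled out by their low Dnmt3a, so that these values are a description, Dnmt3a changed by 0.033 in Dnmt3b KO, and between Dnmt3b KO and Dnmt3a KO Dnmt3a differed by 1.72 and Dnmt3b by -0.013. Dnmt3l in Dnmt3b KO then changed by -0.21, the classes called were 1 for Dnmt3b and 2 for Dnmt3l in Dnmt1 KO and 15 for Dnmt3a in Dnmt3a KO, and at fixed composition Dnmt3a changed by -1.71 in Dnmt3a KO and by 0.18 in Dnmt3b KO, and Dnmt3b by -0.024 in Dnmt3b KO. Dnmt3b in Dnmt3b KO, near 0, became 0.0073 with DESeq2 and with its size factors, 0.030 without a low-count filter, 0.077 with a covariate for the reference and 0.022 after thinning. With DESeq2 the classes called were 1 for Dnmt3b in Dnmt1 KO and 14 for Dnmt3a in Dnmt3a KO. Without the filter they were 3 for Dnmt3l in Dnmt1 KO, 15 for Dnmt3a in Dnmt3a KO and 1 for Dnmt3l in Dnmt3b KO. The last count for Dnmt3a was 4 with the reference covariate and 3 after thinning. With Dnmt3b KO 1 and 2 as separate samples, values at fixed composition were -1.71 for Dnmt3a in Dnmt3a KO and 1.58 for Dnmt3l in Dnmt3b KO (adjusted p = 0.0273 each, exact permutation). As Dnmt3b KO 1 and 2 share most barcodes, counting them separately overstates the sample size, so neither adjusted p is support. The comparison of Dnmt3a KO with WT does not involve them, and its adjusted p changed only through the joint adjustment over the tests. With at least 50 cells a class, Dnmt3l in Dnmt3a KO was -0.26. The causes were not tested.

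Whether replicate numbers pair the embryos was not settled. The 13 pairs of the same number correlated between -0.338 and 0.405 (WT 1 with Dnmt3a KO 1), and 5 were over 0.1. No correlations of differently numbered pairs were set beside them. With the number as a block, Dnmt3a in Dnmt3a KO changed by -1.55 (adjusted p = 0.219, edgeR), Dnmt3b by 1.26 in Dnmt1 KO and 0.39 in Dnmt3a KO, and 1 class was called for Dnmt3b in Dnmt1 KO. With the block and Dnmt3b KO 1 and 2 separate, an alternative chosen after seeing the data, these were -1.55 (adjusted p = 0.0731), 1.27, 0.38 and 1. Dnmt3a and Dnmt3b in Dnmt3b KO changed by 0.17 and 0.33, Dnmt3b between Dnmt3b KO and Dnmt3a KO by -0.056 and Dnmt3l in Dnmt3b KO by -0.69, and 2 classes were called for Dnmt3a in Dnmt3a KO.

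When each library was left out in turn, Dnmt3a lay between -1.73 and -1.61 in Dnmt3a KO, and its difference between Dnmt3b KO and Dnmt3a KO between 0.88 and 1.31. Dnmt3b ranged from 0.82 to 1.06 in Dnmt1 KO and from -0.082 to 0.090 in Dnmt3b KO. Dnmt3l in Dnmt3a KO ranged from -1.17 to 0.00025, the latter without WT 2. Classes called ranged from 0 to 1 for Dnmt3b and for Dnmt3l in Dnmt1 KO and from 2 to 14 for Dnmt3a in Dnmt3a KO. At fixed composition, Dnmt3b in Dnmt3b KO ranged from -0.0025 to 0.16 and Dnmt3l in Dnmt3a KO from -0.13 to 0.17. The depth limits Dnmt3l most, with 13 to 236 UMIs in a WT library.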

Other observations

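Genes within 1 Mb of a member were screened in the same fit. Near Dnmt3a, 0 of 26 tested genes were called by edgeR in any KO against WT. Near Dnmt3b, 5 of 35 were called higher in Dnmt1 KO and 1 lower, where 8.16% and 6.04% of all genes were: Dnmt3bos (1.54 on the log2 scale), Bpifb4 (1.02), Bpifb5 (2.003), Cdk5rap1 (1.89) and Necab3 (1.30) rose and Tspyl3 fell (-1.09). Dnmt3bos is antisense to Dnmt3b and overlaps it. Near Dnmt3l, 4 of 31 were called higher in Dnmt1 KO, namely Trpm2 (4.40), Aire (3.28), a regulator of antigen expression in the thymus whose gene overlaps the first start of Dnmt3l, Icosl (1.17) and Casp14 (4.30). In Dnmt3b KO 2 of these 31 were called higher, Aire (2.35, adjusted p = 0.00457) and Slc1a6 (1.04, adjusted p = 0.00813), where 1.77% of all genes were. Members themselves were left out of these counts.

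In the 4 libraries counted on the combined reference, the human DNMT3 genes held 1 UMI in all, in Dnmt3b KO 11, under the limit of 3 counts.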
